A study of Mus musculus with 12 samples.

Results

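The mitosis and kinetochore genes described here are 47 genes that drive cells into mitosis, attach and move chromosomes, and divide the cell. They were chosen by name, with earlier results of these data known. Each was represented by the probe set annotated to that gene alone with the highest mean over the 12 arrays. All 47 had such a probe set, among 18193 genes measured this way. The arrays were Affymetrix mouse expression arrays of C790 cells, a mouse melanoma line with an Nras mutation, with 3 arrays in each of 4 groups at day 20. All groups carried a lentiviral vector with Oct4, Sox2 and Klf4 under a doxycycline-responsive promoter, together with a blasticidin resistance gene, and a second vector with the doxycycline-dependent activator and mCherry. Control cells (−dox) were kept without doxycycline, partially reprogrammed cells (+dox) with it, and each was given DMSO (the solvent) or trametinib, an inhibitor of the kinase MEK, for 72 h. The trametinib dose of the arrays is not given in the sources used here. Effects of doxycycline itself, of the factors and of blasticidin selection, which the study applied after doxycycline, cannot be told apart between −dox and +dox cells.

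Cells enter mitosis when cyclin-dependent kinase 1, bound to cyclin A or cyclin B, is switched on by CDC25 phosphatases. Kinetochores, protein plates built on centromeres, then tie each chromosome to spindle microtubules, and a checkpoint holds the cell until every chromosome is attached. The anaphase-promoting complex with its partner CDC20 ends that wait. Most of these genes are transcribed late in the cell cycle and little in resting cells, so their summed level in a culture follows how many cells are dividing. In melanoma, signalling from RAS through MEK and ERK is a main drive of the cell cycle. In a bulk sample, fewer dividing cells and less of an RNA per dividing cell cannot be told apart.

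The promoters of genes of this kind are known for the cell cycle homology region (CHR), an element with the core TTTGAA or its variant TTCGAA that binds the MuvB complex of DREAM and B-MYB, and for CCAAT boxes that bind NF-Y. Promoter windows from RefSeq (mouse build GRCm38.p6), from 250 bases before to 50 after a transcription start, were matched for 38 of the 47 members, and both strands were searched. The stretches below are the 120 bases directly before the start of 7 members, 5′ to 3′ on the strand of the gene, with CHR-like and CCAAT matches in capitals, read on either strand. Kif11, Cdk1, Cdc20, Ube2c and Top2a are shown because each has a CHR-like match just before the start. Bub3 is shown as the member with the smallest fall in −dox cells, and Nuf2 as one with neither match.
Kif11: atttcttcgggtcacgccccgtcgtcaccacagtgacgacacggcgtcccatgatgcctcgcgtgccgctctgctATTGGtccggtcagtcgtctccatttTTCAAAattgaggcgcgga
Cdk1: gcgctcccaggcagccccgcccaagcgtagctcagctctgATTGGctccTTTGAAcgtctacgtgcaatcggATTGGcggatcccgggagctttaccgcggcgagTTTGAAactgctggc
Cdc20: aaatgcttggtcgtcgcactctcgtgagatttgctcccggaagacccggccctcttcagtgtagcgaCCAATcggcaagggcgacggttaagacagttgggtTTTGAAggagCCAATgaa
Ube2c: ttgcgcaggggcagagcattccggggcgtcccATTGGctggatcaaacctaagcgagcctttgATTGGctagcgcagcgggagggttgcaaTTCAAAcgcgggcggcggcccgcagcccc
Top2a: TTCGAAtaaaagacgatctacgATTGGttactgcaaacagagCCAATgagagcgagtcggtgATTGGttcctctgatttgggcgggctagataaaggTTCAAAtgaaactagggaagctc
Bub3: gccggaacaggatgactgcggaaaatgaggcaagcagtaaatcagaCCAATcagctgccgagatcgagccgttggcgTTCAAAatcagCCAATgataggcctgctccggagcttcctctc
Nuf2: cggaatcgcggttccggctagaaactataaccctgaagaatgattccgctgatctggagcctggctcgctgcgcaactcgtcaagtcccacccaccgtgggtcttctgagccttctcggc
The stretches lie at chr19:37376262-37376381 (plus strand) for Kif11, chr10:69352913-69353032 (minus) for Cdk1, chr4:118437344-118437463 (minus) for Cdc20, chr2:164769809-164769928 (plus) for Ube2c, chr11:99024190-99024309 (minus) for Top2a, chr7:131560250-131560369 (plus) for Bub3 and chr1:169531465-169531584 (minus) for Nuf2. In the first 6 of them a CHR-like match starts 19, 15, 18, 29, 23 and 43 bases before the start. Each of the 6 also holds at least 1 CCAAT match.

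A CHR-like match was found in 31 of the 38 matched members (81.6%), against 17.5% of 14368 measured genes with a window and 19.2% of all 32851 windows. CCAAT was present in 29 members (76.3%, against 42.0% of measured genes and 37.4% of all windows), and at 2 or more places in 18 (47.4%, against 14.9% and 11.7%). GGCGG, a core of E2F-like sites, was present in 35 (92.1%, against 72.8% and 48.8%). In 25 members (65.8%, against 4.5% of measured genes and 5.2% of windows) a CHR-like match started within 60 bases before to 30 after the start, a window added after the search was planned. With the bases before the start alone the CHR-like share was 42.1% of members and 15.7% of measured genes. A CHR-like match overlapped a CCAAT match in 1 of the 42 member windows, and GGCGG overlapped CCAAT in 1. These are matches of letters and not tested sites.

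**Figure D1:**
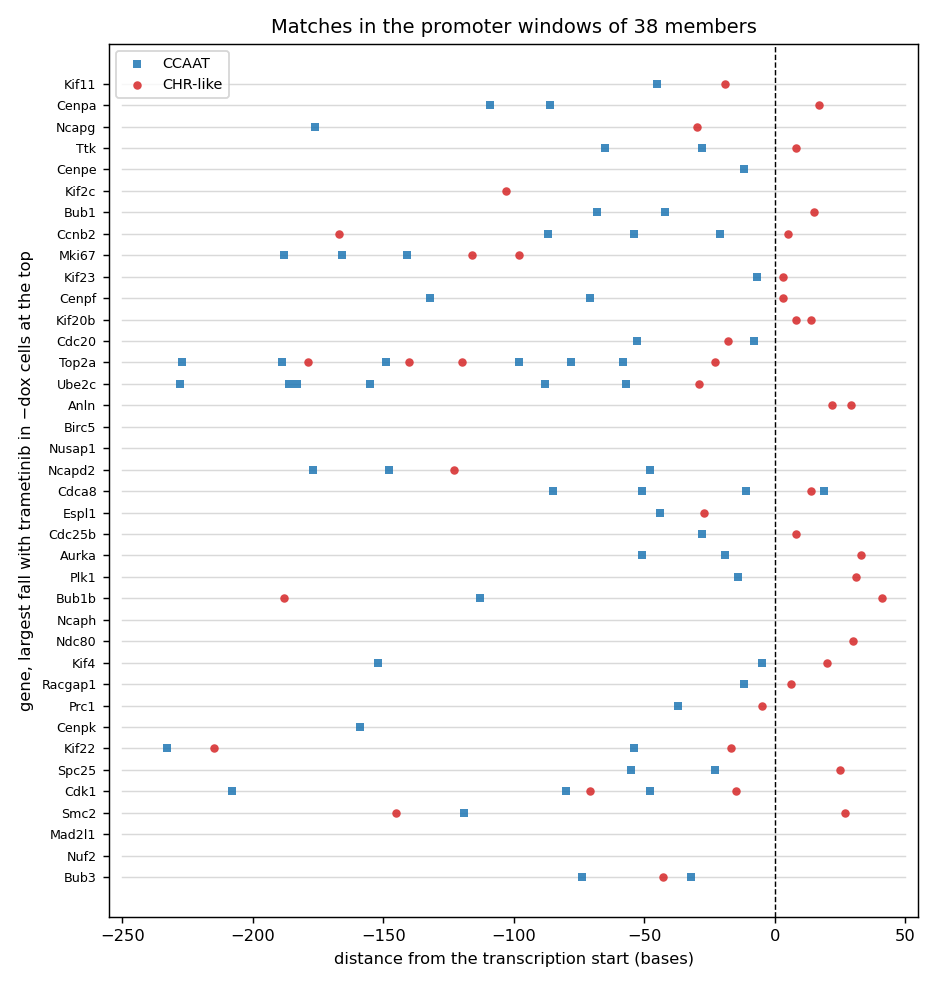
Positions of CHR-like matches (either core, circles) and CCAAT matches (squares), both strands, in bases from the transcription start for the 38 members with a RefSeq promoter window (the first window by coordinate for the 3 members with several). Members are ordered by the change with trametinib in −dox cells, and 65 of the 66 CCAAT matches over all windows lie before the start.

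The C790 label was checked against melanocyte genes. The pigment enzymes Tyr, Tyrp1 and Dct, and Mlana, Kit, Gpr143 and Slc45a2, had group means under the background level of 4.86 (log2) in all 4 groups, while Mitf, Pmel, Sox10 and Pax3 were above it. The background level is the value under which 95% of the 86 probe sets for odour, pheromone and taste receptor genes lie. Of the factors of the vector, Pou5f1 (Oct4) was called higher in +dox cells under DMSO (5.45, against 4.63 in −dox cells, which is under the background level), Sox2 went from 7.40 to 5.87 (adjusted p = 0.091 from limma) and Klf4 from 9.45 to 9.30 (adjusted p = 0.8). Whether these probe sets read the vector's copies is not given in the sources used here. Markers of other cell types moved with doxycycline. Of 9 fibroblast markers, 5 (Pdgfra, Pdgfrb, Col1a1, Col3a1 and Dcn) were called lower in +dox cells under DMSO and 3 under trametinib. Of all genes, 3.28% and 1.42% were. With trametinib 4 were called higher and 1 lower in −dox cells, and 3 higher and 0 lower in +dox cells. Of all genes, 11.6% were called higher and 10.8% lower in −dox cells, and 13.8% higher and 12.5% lower in +dox cells. The list's mean was 6.92 to 7.13 on −dox DMSO, 7.19 to 7.67 on −dox trametinib, 5.45 to 5.88 on +dox DMSO and 6.30 to 6.57 on +dox trametinib arrays. Col1a2, Lum and Thy1 had group means under the background level in all groups. Of 9 leukocyte markers, only Itgam was called higher in +dox cells under DMSO (mean 5.60, against 3.15 in −dox cells). It alone was called lower with trametinib in +dox cells (mean 3.72). At an unadjusted limma p under 0.05, 2 of the 9 were higher in +dox cells under DMSO (10% of all genes). At that p, 2 were lower with trametinib in +dox cells (16.4% of all genes). Cd68 had the lowest difference of the trametinib responses (+dox minus −dox) of the list, -2.11, which was not called. With trametinib in −dox cells 1 of the 9 was called higher. The mean of the list lay between 4.18 and 5.02 on all arrays, and Ptprc, the pan-leukocyte marker, was under the background level. Whether other cell types were present, and what part they had in the results below, was not tested.

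Within each group, arrays correlated at 0.979 to 0.997 over all genes. The −dox DMSO replicate 1 stood apart, with 0.979 and 0.984 against the other arrays of its group, which correlated at 0.997 with each other, and 61.4% of all genes had their lowest value of the group on it. Median log2 changes of the members in comparisons that use this array are given with and without it. The call of each member for trametinib in −dox cells held without it. Counts by size of fall, percents of the DMSO level left, non-overlap counts, unadjusted p counts and correlations are given only with it. Of the marker results above, the calls of Pou5f1, Itgam and the 5 fibroblast markers under DMSO held without this array, and Sox2 was then called lower in +dox cells (-1.99, adjusted p = 0.03). Nothing in the labels says that arrays of a group came from separate cultures, so a p-value here speaks only of the spread among the arrays, which may be technical.

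Array by array, the members moved as a block. Their mean log2 expression was 9.61, 10.13 and 10.12 on −dox DMSO replicates 1 to 3 and 10.04, 10.59 and 10.24 on the +dox DMSO arrays. With trametinib it was 7.94, 7.30 and 7.25 in −dox cells and 8.42, 9.28 and 7.92 in +dox cells. No trametinib array reached the lowest DMSO array, and the +dox trametinib arrays were the most spread, with a gap of 1.36 between the highest and the lowest against 0.52 to 0.69 in the other groups. The group means were 9.95 ± 0.30 (−dox DMSO), 7.50 ± 0.38 (−dox trametinib), 10.29 ± 0.28 (+dox DMSO) and 8.54 ± 0.69 (+dox trametinib; SD, n = 3 each).

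**Figure D2:**
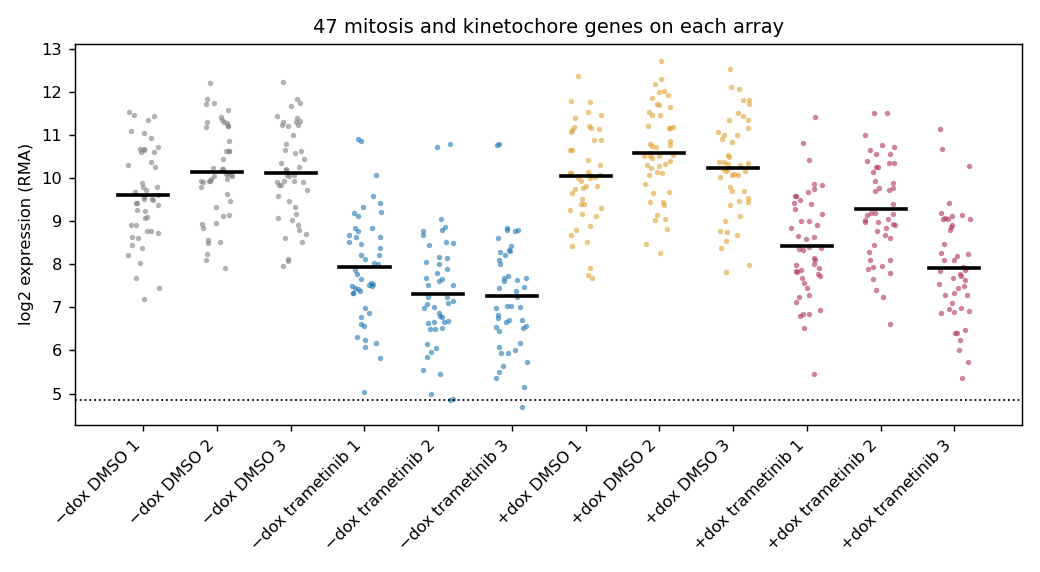
Log2 expression of the 47 members (points) on each of the 12 arrays, with the mean over members as a black bar and the background level of 4.86 as a dotted line. The bars of the 6 trametinib arrays lie between 7.25 and 9.28, below those of the 6 DMSO arrays, which lie between 9.61 and 10.59.

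The spread inside a group was shared by nearly all members. On +dox trametinib replicate 2 all 47 members had their highest value of the group, where 33.5% of all genes did, with a median deviation of 1.13 from the mean of the other arrays of that group. On replicate 3 of that group 46 of 47 had their lowest value (30.6% of all genes), with a median deviation of -0.96. DNA replication genes deviated alike on these arrays, with 0.83 and -0.82, while the median deviation of ERK output genes was 0.08 and 0.09. In −dox trametinib cells, 46 of 47 members had their highest value on replicate 1 (36.1% of all genes). Under DMSO, 42 members had their lowest value on −dox DMSO replicate 1 (61.4% of all genes) and 46 their highest on +dox DMSO replicate 2 (38.8%). The array of a group with the highest program was thus not the same replicate number in all groups.

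Over the 12 arrays, the median correlation of the 1081 pairs of members was 0.979 and the lowest 0.844. These values largely repeat the contrast of DMSO and trametinib arrays. After group means were taken away, the median pairwise correlation was still 0.90 and the lowest 0.257. Of the members, 45 correlated above 0.8 with the mean of the other members in these deviations, while 2.47% of all genes did so with the mean of the members. The exceptions were Cdc25b (0.554), a phosphatase that activates cyclin-dependent kinases, and Espl1 (0.795), the separase that cuts cohesin. The points are 12 arrays of 4 groups that share whatever varies between arrays, so these correlations are descriptions.

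**Figure D3:**
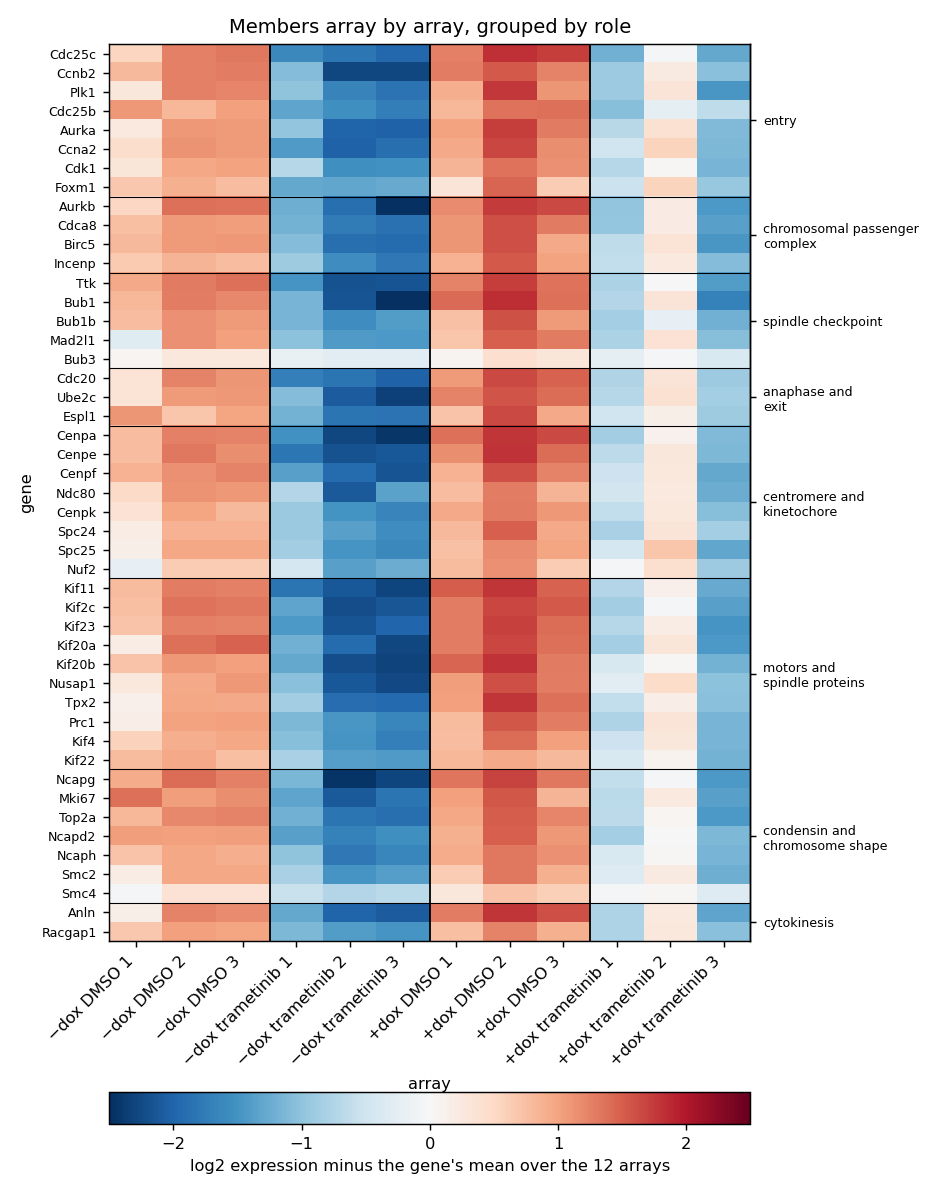
Log2 expression of each member minus its own mean over the 12 arrays (colour), with members grouped by role and arrays by group. Columns rather than single rows carry most of the pattern, and +dox trametinib replicate 2 holds the highest value of its group for all 47 members.

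Trametinib lowered the whole program in control cells, the question being what the MEK inhibitor does to the cell cycle of cells that were not reprogrammed. All 47 members were called lower in −dox cells (adjusted p under 0.05 from limma, adjusted over all 18193 genes), where 10.8% of all genes were called lower, and 0 were called higher, where 11.6% of all genes were. The median log2 change was -2.55, from -3.19 for Kif11 to -0.44 for Bub3, against 0.06 over all genes. A median of 17.0% of the DMSO level was left. Of the members, 41 fell by more than 2 on the log2 scale and 45 by more than 1. All 47 had all 3 trametinib arrays below all 3 DMSO arrays, as 15.2% of all genes did. Without −dox DMSO replicate 1, all 47 were still called lower, with a median of -2.71.

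In partially reprogrammed cells the same 47 genes fell. All 47 were called lower, where 12.5% of all genes were, and 0 higher, where 13.8% of all genes were. The median log2 change was -1.80, from -2.44 for Cdc25c to -0.48 for Bub3, against 0.02 over all genes, and a median of 28.7% of the DMSO level was left. Of the members, 13 fell by more than 2 on the log2 scale and 45 by more than 1. The arrays of 46 members did not overlap, as those of 18.6% of all genes did not, and the exception was Foxm1. Without +dox trametinib replicate 2, all 47 were still called and the median was -2.16.

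**Figure D4:**
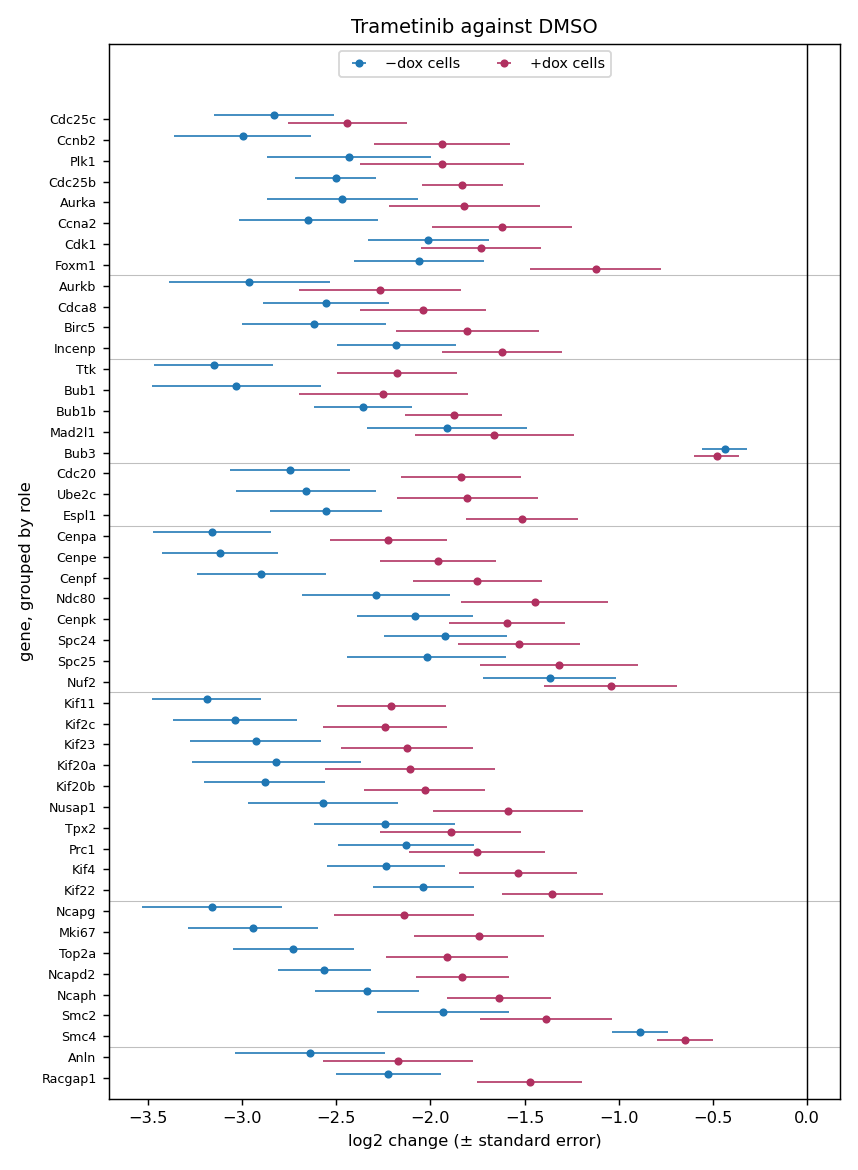
Log2 change with trametinib against DMSO for each member in −dox and +dox cells (points, with the standard error from limma as bars), grouped by role. All points lie below 0, and the +dox point is to the right of the −dox point for 46 of the 47 members.

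Among the genes of mitotic entry, 8 of 8 fell in both cell states. Cdc25c, a phosphatase that removes the inhibitory phosphates of cyclin-dependent kinase 1, had log2 values of 7.19, 7.91 and 7.96 on −dox DMSO arrays and 5.04, 4.85 and 4.68 with trametinib. In +dox cells its values were 7.91, 8.47 and 8.37 under DMSO and 5.45, 6.61 and 5.37 with trametinib. The groups did not overlap in either cell state. Since the −dox trametinib mean was just under the background level, its fall there is at least 2.83 (adjusted p = 0.00017), and the +dox change was -2.44 (standard error 0.32, adjusted p = 0.00024). Cdk1, the mitotic kinase itself, changed by -2.01 in −dox and -1.73 in +dox cells (standard error 0.32 each, adjusted p = 0.0011 and 0.002). Plk1, the kinase that matures centrosomes and spurs entry, changed by -2.43 and -1.94 (adjusted p = 0.0022 and 0.0064). Cdc25b changed by -2.50 and -1.83.

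Foxm1, the transcription factor that switches on many of the other members, had the smallest fall of this role in +dox cells. Its values were 8.02, 8.24 and 8.13 on −dox DMSO arrays and 6.07, 6.06 and 6.08 with trametinib. On +dox DMSO arrays they were 7.68, 8.81 and 7.99 and with trametinib 6.81, 7.90 and 6.40. Under trametinib the −dox arrays lay close together, while in +dox cells replicate 2 with trametinib was above DMSO replicate 1. Foxm1 changed by -2.06 in −dox (adjusted p = 0.0015) and -1.12 in +dox cells, with an adjusted p of 0.033. This second call was lost when +dox DMSO replicate 2 or 3 or +dox trametinib replicate 1 or 3 was left out, and in a fit of the +dox arrays alone (adjusted p = 0.089).

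The chromosomal passenger complex corrects wrong attachments and directs the final cut between daughter cells, and all 4 of its genes fell in both states. Aurkb, its kinase, went from 9.63 ± 0.49 to 6.67 ± 0.66 in −dox cells and from 10.08 ± 0.30 to 7.81 ± 0.85 in +dox cells (SD, n = 3), changes of -2.96 and -2.27. Incenp, its scaffold, had the smallest fall of the group, with -2.18 and -1.62 (adjusted p = 0.00071 and 0.003 from limma). The survivin gene Birc5 and the borealin gene Cdca8 lay between them in −dox cells, with -2.62 and -2.55.

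Of the spindle checkpoint genes, 4 fell strongly and Bub3 little. Ttk, the kinase that starts the checkpoint at kinetochores, changed by -3.15 and -2.18 (standard error 0.32, adjusted p = 9.5e-05 and 0.00049), which left 11.3% and 22.1% of the DMSO level. Bub3, the adaptor that docks checkpoint proteins on kinetochores, had values of 11.10, 11.31 and 11.30 on −dox DMSO and 10.85, 10.79 and 10.76 on −dox trametinib arrays. In +dox cells they were 11.12, 11.47 and 11.34 and 10.82, 11.00 and 10.67. The groups did not overlap, but the changes were only -0.44 and -0.48 (standard error 0.12, adjusted p = 0.022 and 0.011), with 73.9% and 71.7% of the DMSO level left. The −dox call of Bub3 was lost when replicate 2 or 3 of either −dox group was left out, and when each array was centred on its median. A second Bub3 probe set well above the background (mean 8.47) changed by 0.17 and 0.05 and was not called. Its promoter, printed above, holds both a CHR-like and CCAAT matches.

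The genes of anaphase and exit fell as one, with 3 of 3 called in both states and changes from -2.74 to -2.55 in −dox and from -1.84 to -1.51 in +dox cells. Cdc20, which activates the anaphase-promoting complex, was at 10.67, 11.57 and 11.44 on −dox DMSO arrays and at 8.63, 8.51 and 8.31 with trametinib. In +dox cells it was at 11.40, 11.99 and 11.80 and, with trametinib, at 9.59, 10.66 and 9.43. Its trametinib arrays were all below its DMSO arrays, and each +dox trametinib value was above each −dox trametinib value. Espl1 and Ube2c, the ubiquitin-conjugating enzyme of the same complex, had the other changes of this role.

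All 8 genes of the centromere and kinetochore fell in both states. The +dox call of Spc25 (adjusted p = 0.039 from limma) was lost in a fit of the +dox arrays alone (adjusted p = 0.063). Cenpa, the histone H3 variant that marks centromeres, was at 10.92, 11.41 and 11.39 on −dox DMSO arrays and at 8.64, 7.88 and 7.72 with trametinib. In +dox cells it was at 11.53, 11.93 and 11.81 and, with trametinib, at 9.29, 10.26 and 9.05. Again the groups did not overlap, and 11.2% and 21.4% of the DMSO level were left. Nuf2, a subunit of the NDC80 complex that grips microtubules, had the smallest mean fall of the role, with -1.37 and -1.04 (standard error 0.35 for both, adjusted p = 0.017 and 0.049). In −dox cells its groups came close without overlapping, with DMSO replicate 1 at 7.69 and trametinib replicate 1 at 7.45. The −dox call of Nuf2 ended without −dox DMSO replicate 2 or 3 or −dox trametinib replicate 2 or 3, and its +dox call ended without any 1 of the +dox arrays other than trametinib replicate 2, without any of those 4 −dox arrays, and with the mean of the probe sets of each gene in the fit.

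The 10 genes of motors and spindle proteins had the largest median falls of the roles with more than 3 members, -2.69 in −dox and -1.96 in +dox cells, and all 10 were called in both. Kif11, the motor that pushes spindle poles apart, was at 8.44, 8.94 and 8.91 on −dox DMSO arrays and at 5.83, 5.54 and 5.36 with trametinib. In +dox cells it was at 9.17, 9.44 and 9.13 and, with trametinib, at 6.93, 7.79 and 6.40. This left 11.0% of the DMSO level in −dox and 21.7% in +dox cells (changes of -3.19 and -2.21, each with a standard error of 0.29, adjusted p = 5.6e-05 and 0.00026). Kif22, a motor on chromosome arms, had the smallest fall of the role by the probe set that stands for it, with -2.04 and -1.35. Its other probe sets, both above the background level, fell more, by -2.80 and -2.72 in −dox and by -2.28 and -2.31 in +dox cells.

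The condensin subunits and other genes of chromosome shape fell in 7 of 7 cases in both states, over a wide range. Ncapg, a condensin subunit, changed by -3.16 and -2.14 (standard error 0.37, adjusted p = 0.00022 and 0.0014). Smc4, a core ATPase of both condensins, changed by -0.89 and -0.65 (standard error 0.15, adjusted p = 0.0015 and 0.0073), which left 54.1% and 63.9% of the DMSO level. A second Smc4 probe set (mean 10.30) changed by -0.45 and -0.65 and was not called by limma (adjusted p = 0.19 and 0.054). Another (mean 9.45) changed by -0.62 and -0.77. Both of these fell more in +dox cells. Smc4 and Bub3 were the members that changed by less than 1 in both states. Mki67, the proliferation marker that coats mitotic chromosomes, was at 11.53, 11.20 and 11.32 on −dox DMSO arrays and at 8.84, 8.05 and 8.33 with trametinib. On +dox arrays it was at 11.19, 11.71 and 11.01 and, with trametinib, at 9.49, 10.39 and 8.80. Its changes were -2.94 and -1.74, and its DMSO levels overlapped between −dox and +dox cells. Of the cytokinesis genes, Anln, the anillin of the contractile ring, changed by -2.64 and -2.17 (adjusted p = 0.00084 and 0.002), and Racgap1, which organises the central spindle, by -2.22 and -1.47.

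Whether reprogramming changed the program was asked first without the drug. Under DMSO, 0 of 47 members were called in +dox against −dox cells by limma, in either direction, where 3.28% of all genes were called lower and 2.87% higher, and 0 had an unadjusted p under 0.05, where 10.2% of all genes were lower and 10.0% higher at that p. With probe sets averaged per gene in place of 1 probe set, 1 (Smc2, a condensin subunit) was called higher. The log2 change was positive in 46 members, with a median of 0.36 and a range from -0.05 (Mki67) to 0.72 (Tpx2), against 0.01 over all genes. In 11 members all 3 +dox arrays were above all 3 −dox arrays, where 11.3% of all genes were. By replicate number, the mean over members was higher in +dox cells by 0.43, 0.46 and 0.12, and with the number as a block 0 members were called. The median was 0.17, with 42 members positive, without −dox DMSO replicate 1 and 0.19 without +dox DMSO replicate 2. The 95% confidence interval of Mki67 ran from -0.81 to 0.71 and that of Cdk1 from -0.34 to 1.06. By EdU incorporation, the study reported reduced proliferation of reprogrammed cells. That is not an RNA measure and was not set against these values.

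Under trametinib, 6 members were called higher in +dox than in −dox cells, and 41 were not called. The 6 were Kif11, Cenpe, Cenpa, Kif20b, Cdc20 and Cdc25b, where 1.95% of all genes were called higher. None of the members was called lower, where 1.42% of all genes were. All 47 had a positive change, with a median of 0.97 against -0.02 over all genes, and 43 were higher at an unadjusted p under 0.05, as 7.62% of all genes were. By replicate number, the mean over members was higher in +dox cells by 0.48, 1.98 and 0.67. The groups overlapped in this mean, with 7.92 on +dox trametinib replicate 3 and 7.94 on −dox trametinib replicate 1. Since the members moved as a block, these counts over members are not separate results. In 19 members all 3 +dox arrays were above all 3 −dox arrays, where 9.45% of all genes were. Cenpe, the kinetochore motor that brings chromosomes to the spindle equator, was at 6.86, 6.49 and 6.54 on −dox trametinib arrays and at 8.0, 8.94 and 7.53 on +dox trametinib arrays. Each +dox value was above each −dox value. The difference was 1.53 (standard error 0.31, 95% confidence interval 0.85 to 2.20, adjusted p = 0.021). It was 1.46 for Kif11 (adjusted p = 0.019), 1.45 for Cenpa (0.028), 1.43 for Kif20b, a motor of the central spindle (0.035), 1.41 for Cdc20 (0.036) and 0.89 for Cdc25b (0.048). Mki67 was higher by 1.15 (adjusted p = 0.11) and Cdk1 by 0.64 (adjusted p = 0.41), and neither was called.

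This count depended on the fit and on single arrays. With the replicate number as a block 9 members were called, the 6 above and Ccna2, Cenpf and Espl1 (adjusted p = 0.046, 0.049 and 0.047), and with only the 6 trametinib arrays in the fit 0 were, with adjusted p from 0.074 to 0.12 for the 6. Leaving out single arrays, the count fell to 0 for −dox trametinib replicate 2 or 3, to 1 for +dox trametinib replicate 1 and to 2 for +dox trametinib replicate 2. It went up to 21 for +dox trametinib replicate 3, to 15 for −dox trametinib replicate 1 and to 11 for −dox DMSO replicate 1, and was 3 for replicate 3 of either DMSO group. Leaving out +dox trametinib replicate 2 took the median from 0.97 to 0.66, and leaving out replicate 3 of that group took it to 1.34. Fibroblast markers, whose values stand above, were lower in +dox cells in the same comparison, and their part in it was not tested.

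**Figure D5:**
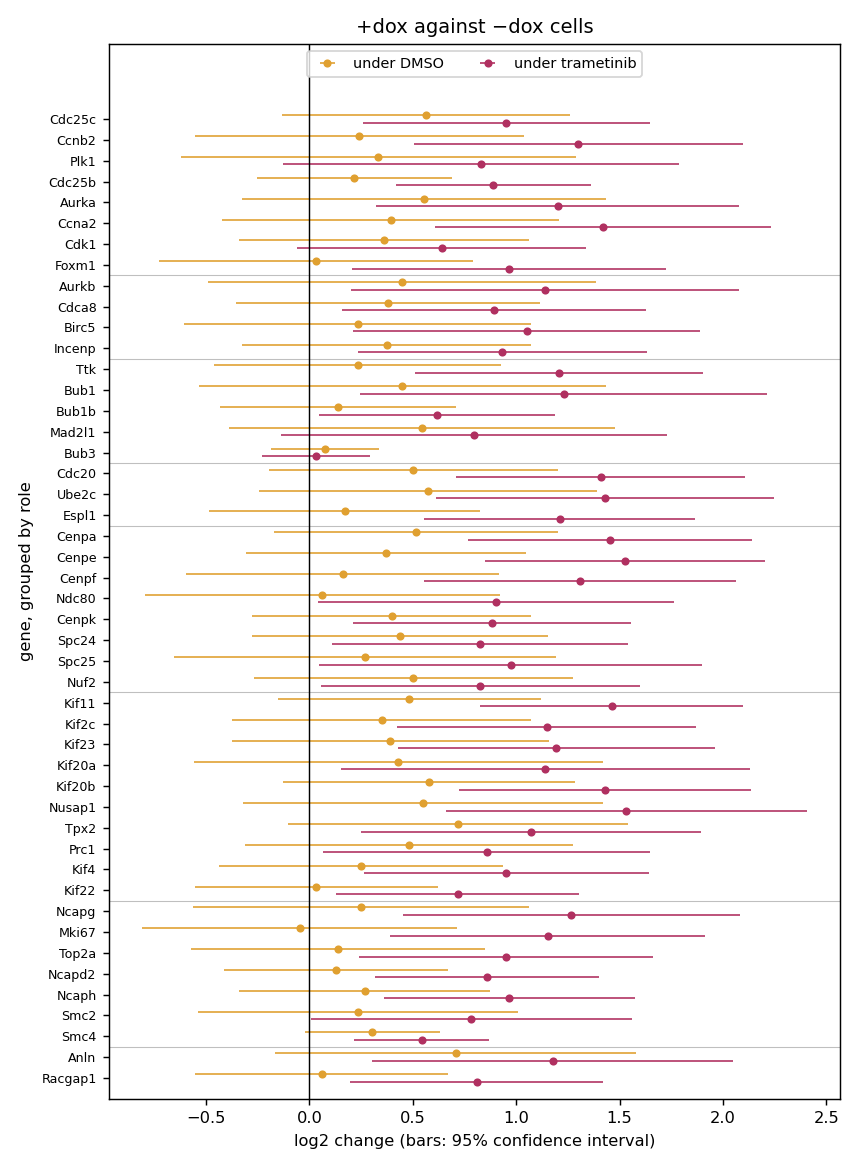
Log2 difference of +dox against −dox cells for each member under DMSO and under trametinib (points, with 95% confidence intervals from limma), grouped by role. Under DMSO all 47 intervals include 0, and under trametinib 46 of the 47 points lie to the right of the DMSO point of the same gene.

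The trametinib falls of −dox and +dox cells were compared directly by the difference of the responses. The fall was smaller in +dox cells for 46 of 47 members, and the median member kept 71.4% of its −dox log2 change, from 54.5% to 109.8%. This count rests on 1 probe set per gene. Some other probe sets above the background level had a difference of the opposite sign, from -0.57 to -0.02. They were of Cdc20, Cenpf, Incenp, Kif2c, Smc2, Smc4, Spc25 and Tpx2. No member was called for this difference by limma: 0 were called higher, where 0.258% of all genes were, and 0 lower, where 0.0715% of all genes were, and the smallest adjusted p was 0.32. With array weights 2 (Cenpe and Kif11) were called higher. The median difference was 0.71, and 6 members (Mki67, Cenpe, Cenpf, Espl1, Kif11 and Cdc25b) were higher at an unadjusted p under 0.05, where 5.9% of all genes were higher and 5.73% lower. It was 1.20 for Mki67 (95% confidence interval 0.12 to 2.28) and -0.04 for Bub3 (-0.41 to 0.33). Leaving out +dox trametinib replicate 2 brought the median to 0.36, and leaving out −dox DMSO replicate 1 to 0.92. In that second case the fall was smaller in +dox cells for all 47 members, and the median member kept 66.7% of its −dox change. By replicate number, the mean over members changed with trametinib by -1.67, -2.83 and -2.87 in −dox and by -1.62, -1.31 and -2.32 in +dox cells for numbers 1, 2 and 3. The cell states were nearly level for number 1, which includes the array that stood apart, and farthest apart for number 2.

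Other mitotic genes that are not among the 47 were read in the same fits. This list and those below were also chosen with earlier results of these data known. Of 59 such genes, 52 were called lower and 0 higher with trametinib in −dox cells, and 52 lower and 0 higher in +dox cells. The medians were -2.05 and -1.53. Of all genes, 10.8% were called lower and 11.6% higher in −dox cells, and 12.5% lower and 13.8% higher in +dox cells. These shares apply to the lists below as well. Cenph, a kinetochore protein, changed by -3.06 and -1.98, Aspm, a spindle pole protein, by -3.06 and -1.98, and Depdc1a by -2.93 and -2.13. Those not called in −dox cells were Mis12, Zwint, Ska2, Pttg1, Ncaph2, Kif14 and Kif15, of which Kif14 was under the background level in all groups. Kif15 was close to that level of 4.86, with means of 4.87 (−dox DMSO), 4.83 (+dox DMSO) and 4.87 (+dox trametinib). Pttg1, the securin that holds separase back, had changes of 0.25 and 0.35 (adjusted p = 0.19 and 0.06). Stmn1, a microtubule destabiliser, changed by -1.44 in −dox cells (adjusted p = 0.0019) and by 0.12 in +dox cells (adjusted p = 0.79), and under trametinib it was higher in +dox cells by 1.19 (adjusted p = 0.026). Under trametinib 4 of these genes (Cdca2, Aspm, Stmn1 and Hmgb2) were called higher in +dox cells, where 1.95% of all genes were, and 0 lower. Under DMSO 0 were called. Ccnb1, the main partner of Cdk1, is not analysed here, since it had no probe set of its own.

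The anaphase-promoting complex and cohesin act on the chromosomes that the kinetochore genes move. Of 14 genes of the anaphase-promoting complex and its regulators, 5 were called lower and 2 higher with trametinib in −dox cells. In +dox cells 5 were called lower and 0 higher. The medians were -0.30 and -0.29, and without −dox DMSO replicate 1 the −dox counts were 8 lower and 1 higher. Of all genes, 10.8% were called lower and 11.6% higher in −dox cells, and 12.5% lower and 13.8% higher in +dox cells. The largest fall was that of Fbxo5, an inhibitor of the complex made at the start of DNA replication, with -2.16 and -1.30, while Anapc1 and Cdc16, subunits of the complex, changed by -0.63 and -0.66 in −dox and by -0.95 and -0.77 in +dox cells. Anapc10 and Anapc11 were the 2 that rose in −dox cells, by 0.50 and 0.34, and the call of Anapc11 was lost without that array (adjusted p = 0.13). Of 11 cohesin genes, 5 fell and 0 rose in each state, with medians of -0.42 and -0.41. Esco2, the acetyltransferase that locks cohesin during DNA replication, dropped to a mean of 4.78 with trametinib in −dox cells, which is under the background level, so that its fall there was at least 2.73, and changed by -1.76 in +dox cells, but the ring subunits Smc1a and Smc3 by -0.74 each in −dox cells and -0.60 and -0.41 in +dox cells.

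Of 21 regulators that bind the promoters of mitotic genes, 7 fell and 1 rose in −dox and 5 fell and 3 rose in +dox cells. Of all genes, 10.8% were called lower in −dox and 12.5% in +dox cells. The shares called higher were 11.6% and 13.8%, and the rises in this list were near or under them. E2f8 and E2f7, repressors that are themselves made in the cell cycle, changed by -2.35 and -2.32 in −dox and by -1.86 and -1.72 in +dox cells. Rb1, the retinoblastoma protein that holds E2F factors back, was at 9.33 ± 0.09 on −dox DMSO and 10.95 ± 0.11 on −dox trametinib arrays, and at 10.40 ± 0.00 and 11.51 ± 0.15 in +dox cells (SD, n = 3). It rose with the drug by 1.62 and 1.11 (adjusted p = 7.4e-06 and 3.1e-05 from limma) and was higher in +dox cells by 1.07 under DMSO and 0.56 under trametinib (adjusted p = 0.00037 and 0.012). Rbl2, the pocket protein of DREAM in resting cells, changed by 0.37 without doxycycline (adjusted p = 0.063) and rose by 0.95 with it. Mybl2 (B-MYB) changed by -1.47 (adjusted p = 0.013) and -1.04 (adjusted p = 0.053). The NF-Y genes Nfya, Nfyb and Nfyc were not called in any of the 4 comparisons.

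Of 17 brakes on the cell cycle, 5 fell and 1 rose with trametinib in −dox and 6 fell and 1 rose in +dox cells. Of all genes, 10.8% were called lower and 11.6% higher in −dox cells, and 12.5% lower and 13.8% higher in +dox cells. Chek1 and Chek2, kinases of the DNA damage checkpoint, changed by -1.99 and -1.76 in −dox and by -1.68 and -1.18 in +dox cells, and Btg2 by -1.94 and -1.09. Gadd45b rose by 1.59 and 1.17. Cdkn1a (p21), an inhibitor of cyclin-dependent kinases, changed by 0.05 in −dox (adjusted p = 0.88) and -0.55 in +dox cells (adjusted p = 0.052), and was higher in +dox cells under DMSO by 0.89 (adjusted p = 0.019). Ccng1 was the other brake called higher there (0.70), and Btg2 and Ccng2 were called lower (-0.96 and -0.70). Without −dox DMSO replicate 1, Btg2 was not called (adjusted p = 0.067). Of all genes, 2.87% were called higher and 3.28% lower in +dox cells under DMSO. Cdkn2a and Cdkn2b had group means under the background level in all groups.

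Of 29 DNA replication genes, 25 were called lower with the drug without doxycycline and 23 with it. None was called higher in either, and the medians were -1.71 and -1.33. Of all genes, 10.8% and 12.5% were called lower. Uhrf1, which keeps DNA methylation through replication, and the licensing factor Cdt1 changed by -2.86 and -2.79 in −dox cells, and Cdc6, a licensing factor too, fell by at least 2.59. Of 19 ERK output genes, 16 were called lower without doxycycline, 15 with it and 0 higher, with medians of -2.88 and -2.93. Egr1, an early ERK-driven transcription factor, changed by -7.54 and -6.76. In +dox against −dox cells under trametinib, 6 of the 19 (Dusp6, Spry2, Spry4, Spred1, Spred2 and Ccnd1) were called higher and 0 lower. Of all genes, 1.95% were called higher there. Of the 6, Spry4 was under the background level in both trametinib groups (means of 3.33 in −dox and 4.80 in +dox cells). Dusp6 was under it on −dox trametinib arrays (3.95, against 4.96 in +dox cells), so its difference was at least 0.1. Ccnd1, the cyclin that carries growth signals to the cell cycle, was at 8.70 on −dox trametinib and 10.20 on +dox trametinib arrays, a difference of 1.50 (adjusted p = 0.0038). The comparisons with a common group share its arrays, so their values stand side by side and were not set against each other.

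Single probe sets gave the same direction for most members. The 47 genes have 109 probe sets of their own, of which 92 had a mean above the background level. In a fit over all such probe sets, 84 of these 92 were called lower and 0 higher with trametinib in −dox cells, and 83 lower and 0 higher in +dox cells. The share of all probe sets called in this fit is not given here. Among those not called were 2 of the 4 probe sets of Tpx2, an activator of Aurora A, with changes of 0.04 and 0.11 in −dox cells where the other 2 changed by -2.24 and -2.12. Under DMSO 3 probe sets were called higher in +dox cells, 1 each of Cenpf, Smc2 and Smc4, and none of them was the probe set that stands for its gene above. Under trametinib 6 were called higher in +dox cells, 2 of Cenpe and 1 each of Kif11, Cenpa, Kif20b and Cdc20. The single probe set of Cdc25b was not called in this fit (adjusted p = 0.066). The other probe sets above the background level were not called for Kif11 (1.34 and 0.71, adjusted p = 0.11 and 0.47), for Cdc20 (1.29 and 0.54, adjusted p = 0.12 and 0.53) or for Cenpa (0.70, adjusted p = 0.64).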

How the data were processed

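RNA from 12 samples of C790 cells, 3 in each of 4 groups, was hybridised to Affymetrix mouse genome expression arrays. The authors deposited log2 expression values of 45101 probe sets, normalised by robust multi-array averaging (RMA). Arrays give no read depth, so the number of arrays limits the precision. Probe sets were named through the platform annotation: 34945 had a single gene, 932 several and 9160 none, and 64 were controls. For each of 18193 genes the probe set with the highest mean over all arrays was used. The members and lists were chosen with earlier results of these data known.

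All 12 arrays were fitted in limma 3.58.1 (R 4.3.3) with a mean per group, moderated variances and Benjamini-Hochberg adjustment over all genes, after tests on simulated data, and genes with adjusted p under 0.05 were called. The background level was the 95th percentile of the means of 86 receptor probe sets. Where it lay between a pair of group means, only a lower limit is printed, namely how far the brighter mean stood above it. Genes named in full were the largest and smallest trametinib changes of each role, the members called for doxycycline, Mki67, Cdk1, Plk1 and Foxm1, and up to 3 falls and 2 rises of each other list. Other genes named from these lists were chosen after their values were seen.

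Replicate numbers come from the sample titles. Deviations of same-numbered arrays correlated at 0.30, 0.46 and 0.02 for trametinib in −dox cells, 0.25, 0.45 and 0.16 in +dox cells, 0.34, 0.17 and 0.23 for doxycycline under DMSO and 0.29, 0.21 and 0.27 under trametinib. Alternatives were a replicate block, only the compared arrays, the mean of the probe sets, single probe sets, a filter at the background level, median centring, quantile normalisation, array weights, a trended robust prior, stricter thresholds, and leaving out each array. Promoter windows came from RefSeq (GRCm38.p6). Plots used Python 3.11.15 and matplotlib 3.10.9.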

Additional observations from a re-analysis of the deposited data

How the results depend on the processing

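The falls with trametinib kept their direction for all 47 members under every alternative tried at the level of genes. Among single probe sets above the background level, those with changes above 0 were of Bub3 and Tpx2. Leaving out each array gave 45 to 47 members called lower in −dox cells and 41 to 47 in +dox cells. The stricter adjusted p of 0.01 gave 45 and 39. With only the compared arrays, the +dox calls of Foxm1 and Spc25 were lost. With probe sets averaged per gene the median change in −dox cells was -2.01. The number of members higher in +dox cells under trametinib was the least stable value: it was 0 with only the compared arrays, 2 with the mean of the probe sets, 31 with array weights, 0 at the adjusted p of 0.01, and 0 to 21 when each array was left out. Under DMSO the mean of the probe sets gave 1 member higher, and array weights gave 2 for the difference of the responses. With the replicate number as a block, 47 members were called for trametinib in each cell state and 9 for doxycycline under trametinib. The block changed no other call of a member. The labels do not say whether the numbers pair arrays, and deviations of same-numbered arrays correlated at 0.02 to 0.46. In −dox cells, replicate 1 had the lowest mean over members under DMSO (9.61) and the highest with trametinib (7.94). The causes were not tested.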
